A study of Mus musculus with 1087 samples.

Results

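The 27 genes described here make cholesterol, sense it, or move it in and out of cells. They were taken as the entries of the deposited count table that carry the chosen symbols, and all 27 were found among its 46078 genes. They fall into 4 roles: 7 enzymes of the mevalonate steps, 11 enzymes of the squalene and sterol steps, 5 genes of sterol-regulatory element binding protein (SREBP) control, and 4 genes of sterol uptake, transfer and export. The first 18 are called the synthesis enzymes below. The rule uses gene symbols and no measured value, but the symbols were chosen with earlier results of these data known.

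Messenger RNA had been read in 1087 single cells of the AGM, the embryonic mouse region of aorta, gonads and mesonephros in which hematopoietic stem cells arise from aortic endothelium. All embryos were Gata2V/+, from C57BL/6HsdJOla females mated with Gata2V/V males, so every cell carried the Venus reporter allele of Gata2, a transcription factor of blood formation, beside a wild-type allele. The labels call all cells Kit high and divide them into CD27+ cells of E11.5 (10.9% of the cells), G2VInt cells of E10 (8.004%), E11 (11.96%) and E11.5 (25.7%), and G2VLo cells of E11.5 (43.4%), where Int and Lo are the intermediate and low Venus gates. How bright the CD27+ cells were for Venus is not given. The authors' classes EC (clusters 1 and 2), HC1 (7 and 8), HC2 (9, 10 and 11), U1 (5 and 6) and U2 (3 and 4) came with the labels, except for CD27+ cells, which have a cluster of the clustering of all cells instead.

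Cholesterol is built from acetyl-CoA through mevalonate, farnesyl diphosphate and squalene. The SREBP-2 protein switches on the enzymes: with little sterol in the endoplasmic reticulum, SCAP escorts SREBP-2 to the Golgi, where it is cut and freed to enter the nucleus, and with enough sterol INSIG proteins hold the complex back. Surplus sterol is turned into oxysterols, which act through liver X receptors (LXR) on the exporters Abca1 and Abcg1. In zebrafish, cholesterol efflux from endothelium and Srebp2 have been tied to the emergence of blood stem cells from the aorta.

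The cells held 117369 to 6999570 counted reads each. The median was 621544 reads in CD27+ cells, 2121423, 2212898 and 1892779 reads in G2VInt cells of E10, E11 and E11.5, and 539090 reads in G2VLo cells. No label ties a cell to an embryo, a litter or a sort. Each group therefore counts as 1 sample without replicates, and no test or p-value is given. Levels are given in CPM, the usual scaling of read counts to a fixed library total, from reads summed over the cells of a set. Their 95% intervals, and those of ratios, cover counting error only, and PCR copies were not told apart. A gene is called here when its CPM differs at least 2-fold, with at least 10 CPM in 1 set and a read in at least 5% of the cells of 1 set. Medians of a list are set against the median over all genes past the same floor, and called relative medians. Library numbers in the titles run in separate blocks for the 3 G2VInt groups, and those of the CD27+ cells lie inside the range of the G2VLo cells. Day and block, and the Int and Lo gates and block, cannot be told apart. The clusters were made from the expression of the same cells, so differences between them are descriptions. EC and HC are read here as endothelial and hematopoietic from marker genes, since the labels do not spell them out.

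EC cells carried endothelial markers: the 10 markers chosen for them summed to 7682 CPM in cluster 2 of the G2VLo cells, and all 10 were at 10 CPM or more. HC1 cells held both endothelial and blood markers, with 2728 and 2871 CPM in G2VLo cells. HC2 cells held 906 CPM of endothelial and 2814 CPM of blood markers. U1 cells carried 10 of 10 macrophage markers, with a sum of 10586 CPM, against 12.2 CPM in EC cluster 2, where 0 of 10 reached 10 CPM. Endothelial markers in U1 cells summed to 125.3 CPM.

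The DNA before the start sites of 4 members is shown because 3 of them, Hmgcs1, Msmo1 and Cyp51, stood in most of the leading pairs that varied together from cell to cell, while Abca1 was the member highest above EC cells in U1 cells. Each line gives the 250 bases upstream of a RefSeq start on the gene's strand, 5′ to 3′, in build GRCm38.p6. The windows are chr13:119690101-119690350 on the plus strand for Hmgcs1, chr8:64733579-64733828 on the minus strand for Msmo1, chr5:4104698-4104947 on the minus strand for Cyp51 and chr4:53159896-53160145 on the minus strand for Abca1. Capitals mark the letters CCAAT on either strand (ATTGG on the other) and TCACNCCAC, a sterol-regulatory-element-like run.
Hmgcs1: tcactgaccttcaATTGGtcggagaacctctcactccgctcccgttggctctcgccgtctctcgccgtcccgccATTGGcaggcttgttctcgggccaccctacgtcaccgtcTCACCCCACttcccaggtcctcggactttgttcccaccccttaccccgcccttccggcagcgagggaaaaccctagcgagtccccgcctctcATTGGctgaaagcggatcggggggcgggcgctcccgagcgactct
Msmo1: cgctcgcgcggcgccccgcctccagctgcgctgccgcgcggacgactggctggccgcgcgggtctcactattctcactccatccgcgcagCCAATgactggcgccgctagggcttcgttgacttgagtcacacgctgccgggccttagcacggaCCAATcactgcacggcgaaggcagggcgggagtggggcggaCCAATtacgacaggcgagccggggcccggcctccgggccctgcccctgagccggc
Cyp51: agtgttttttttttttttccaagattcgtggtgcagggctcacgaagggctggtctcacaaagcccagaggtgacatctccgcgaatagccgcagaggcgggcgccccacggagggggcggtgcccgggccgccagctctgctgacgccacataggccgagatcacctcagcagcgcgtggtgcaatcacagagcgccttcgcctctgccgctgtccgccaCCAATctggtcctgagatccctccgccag
Abca1: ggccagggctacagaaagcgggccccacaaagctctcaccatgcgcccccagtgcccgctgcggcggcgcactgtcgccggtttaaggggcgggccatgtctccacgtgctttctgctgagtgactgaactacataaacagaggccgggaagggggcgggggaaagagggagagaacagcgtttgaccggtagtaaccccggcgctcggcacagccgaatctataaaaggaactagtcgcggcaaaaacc

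Such windows were available here for 21 of the 27 members, 15 of them synthesis enzymes. Fdps, Fdft1 and Sqle were the enzymes without a window. A gene with several starts was counted once. The CCAAT letters, which the factor NF-Y binds beside SREBP in known sterol promoters, were found on either strand in 14 of 15 synthesis enzymes (93.3%) and in 18 of 21 members, against 37.5% of 27025 genes. Acat2 was the synthesis enzyme without them. Msmo1 carried them 3 times, and Mvk 5 times. TCACNCCAC was found in 1 member, Hmgcs1, with its first base at -137 from the start, and in 1.23% of all genes. The E-box CACGTG was found in 6 of 21 members and 6.86% of all genes; Abca1 and Insig1 were among the members. The Abca1 window held no CCAAT and no TCACNCCAC. These are matches of letters in these windows and say nothing of binding.

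The mevalonate enzymes ranged widely per length of transcript. Hmgcs1, which makes HMG-CoA and lies on chromosome 13, stood highest in G2VLo cells at 37.2 CPM per kb of exon, followed by Mvd at 33.6 and Acat2 at 29.1. Idi1 was lowest at 1.18 CPM per kb. By group, Hmgcs1 had 131.1 CPM in CD27+ cells, 109.5, 113.4 and 137.5 CPM in G2VInt cells of E10, E11 and E11.5, and 170.9 CPM in G2VLo cells. Acat2, the cytosolic thiolase of the opening step, had 79.7 CPM in CD27+ cells, 87.3, 83.4 and 80.5 CPM in G2VInt cells of E10, E11 and E11.5, and 74.002 CPM in G2VLo cells. The level of Acat2 is uncertain because 43.1% of its 75-base runs also occur in its near copy Acat3 or in Tcp1.

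Mvk, mevalonate kinase, had 34.2 CPM in CD27+ cells, 19.1, 34.6 and 40.4 CPM in G2VInt cells of E10, E11 and E11.5, and 35.7 CPM in G2VLo cells, so E10 was the low group. Pmvk, the next kinase, had 55.9 CPM in CD27+ cells, 51.8, 55.3 and 56.3 CPM in G2VInt cells of E10, E11 and E11.5, and 47.2 CPM in G2VLo cells. Mvd, which decarboxylates the product to isopentenyl diphosphate, had 46.98 CPM in CD27+ cells, 50.6, 48.6 and 62.3 CPM in G2VInt cells of E10, E11 and E11.5, and 62.5 CPM in G2VLo cells. The 5 groups of Pmvk lay close together, while Mvd was higher in both larger E11.5 groups than in the other 3. Fdps, farnesyl diphosphate synthase, had 8.44 CPM in CD27+ cells, 9.48, 10.7 and 10.1 CPM in G2VInt cells of E10, E11 and E11.5, and 12.1 CPM in G2VLo cells. Idi1, the isomerase, had 4.96 CPM in CD27+ cells, 4.16, 4.74 and 4.01 CPM in G2VInt cells of E10, E11 and E11.5, and 4.13 CPM in G2VLo cells, and so it did not reach 10 CPM in any group and enters no count between groups. The 5 groups of Fdps lay between the values of Idi1 and Mvk. Fdps and Idi1 share 23.5% and 23.6% of their 75-base runs with other genes, so their levels are uncertain.

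Among the sterol enzymes, Sqle, squalene epoxidase and a rate-limiting step, had 119.8 CPM in CD27+ cells, 102.8, 119.6 and 124.3 CPM in G2VInt cells of E10, E11 and E11.5, and 133.8 CPM in G2VLo cells. Msmo1, the methylsterol oxidase, had 101.3 CPM in CD27+ cells, 99.2, 112.3 and 93.5 CPM in G2VInt cells of E10, E11 and E11.5, and 108.98 CPM in G2VLo cells. Cyp51, lanosterol demethylase, had 75.3 CPM in CD27+ cells, 69.5, 99.4 and 83.4 CPM in G2VInt cells of E10, E11 and E11.5, and 92.8 CPM in G2VLo cells. These 3 stood at 24.1, 17.7 and 21.03 CPM per kb in G2VLo cells, the highest of this role. Fdft1, squalene synthase, had 53.7 CPM in CD27+ cells, 38.2, 58.5 and 70.1 CPM in G2VInt cells of E10, E11 and E11.5, and 63.6 CPM in G2VLo cells; it overlaps Ctsb on the other strand, and the strand setting of the counting is not given in the sources used here. Dhcr7, a terminal reductase, had 42.4 CPM in CD27+ cells, 55.8, 54.1 and 53.6 CPM in G2VInt cells of E10, E11 and E11.5, and 48.4 CPM in G2VLo cells. Sc5d, the desaturase before it, had 42.2 CPM in CD27+ cells, 32.8, 47.03 and 42.8 CPM in G2VInt cells of E10, E11 and E11.5, and 48.1 CPM in G2VLo cells. Each of these 3 differed by less than 2-fold across the groups.

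Ebp, a sterol isomerase, had 37.2 CPM in CD27+ cells, 32.2, 38.4 and 42.4 CPM in G2VInt cells of E10, E11 and E11.5, and 39.5 CPM in G2VLo cells. Nsdhl, a dehydrogenase of sterol demethylation, had 39.8 CPM in CD27+ cells, 36.9, 36.4 and 37.8 CPM in G2VInt cells of E10, E11 and E11.5, and 35.6 CPM in G2VLo cells. Neither Ebp nor Nsdhl differed by 1.5-fold between any 2 groups. Lss, lanosterol synthase, had 19.4 CPM in CD27+ cells, 19.8, 34.1 and 21.7 CPM in G2VInt cells of E10, E11 and E11.5, and 23.1 CPM in G2VLo cells, highest at E11. Hsd17b7, the ketoreductase of the demethylation complex, had 12.7 CPM in CD27+ cells, 17.3, 17.3 and 15.9 CPM in G2VInt cells of E10, E11 and E11.5, and 12.4 CPM in G2VLo cells. Tm7sf2, a sterol reductase whose reaction Lbr can also carry out, had 10.7 CPM in CD27+ cells, 14.2, 10.9 and 10.9 CPM in G2VInt cells of E10, E11 and E11.5, and 9.32 CPM in G2VLo cells. Tm7sf2, Lss and Hsd17b7 were the lowest of the sterol enzymes per length, at 2.12, 2.14 and 2.43 CPM per kb in G2VLo cells.

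Of the control genes, Srebf2, which encodes SREBP-2, had 101.99 CPM in CD27+ cells, 138.04, 172.3 and 140.2 CPM in G2VInt cells of E10, E11 and E11.5, and 98.1 CPM in G2VLo cells. Scap, the escort, had 68.5 CPM in CD27+ cells, 116.02, 104.1 and 75.7 CPM in G2VInt cells of E10, E11 and E11.5, and 54.4 CPM in G2VLo cells. Both were highest in the G2VInt cells of E10 or E11. Srebf1, whose products favour fatty acid genes, had 40.4 CPM in CD27+ cells, 48.9, 60.8 and 61.01 CPM in G2VInt cells of E10, E11 and E11.5, and 44.2 CPM in G2VLo cells. Insig1, itself an SREBP target, had 22.4 CPM in CD27+ cells, 25.97, 26.7 and 34.5 CPM in G2VInt cells of E10, E11 and E11.5, and 39.1 CPM in G2VLo cells. Insig2, the other retention protein, had 29.8 CPM in CD27+ cells, 22.2, 23.5 and 23.5 CPM in G2VInt cells of E10, E11 and E11.5, and 25.1 CPM in G2VLo cells. Scap shares exon sequence with 5830462I19Rik on the other strand, over 13.2% of its exon length.

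Of the transfer and export genes, Abca1, which passes cholesterol to lipid-poor apolipoprotein, had 27.9 CPM in CD27+ cells, 13.7, 16.8 and 55.7 CPM in G2VInt cells of E10, E11 and E11.5, and 106.6 CPM in G2VLo cells. It was the member with the widest range between groups. Abcg1, which exports to HDL particles, had 9.51 CPM in CD27+ cells, 15.01, 19.5 and 26.4 CPM in G2VInt cells of E10, E11 and E11.5, and 27.9 CPM in G2VLo cells. Stard4, a sterol carrier between membranes and an SREBP target, had 84.2 CPM in CD27+ cells, 48.7, 94.1 and 90.01 CPM in G2VInt cells of E10, E11 and E11.5, and 96.6 CPM in G2VLo cells; the E10 group was low. Npc1, which releases lipoprotein cholesterol from lysosomes, had 27.5 CPM in CD27+ cells, 19.2, 28.3 and 23.5 CPM in G2VInt cells of E10, E11 and E11.5, and 29.4 CPM in G2VLo cells.

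**Figure D1:**
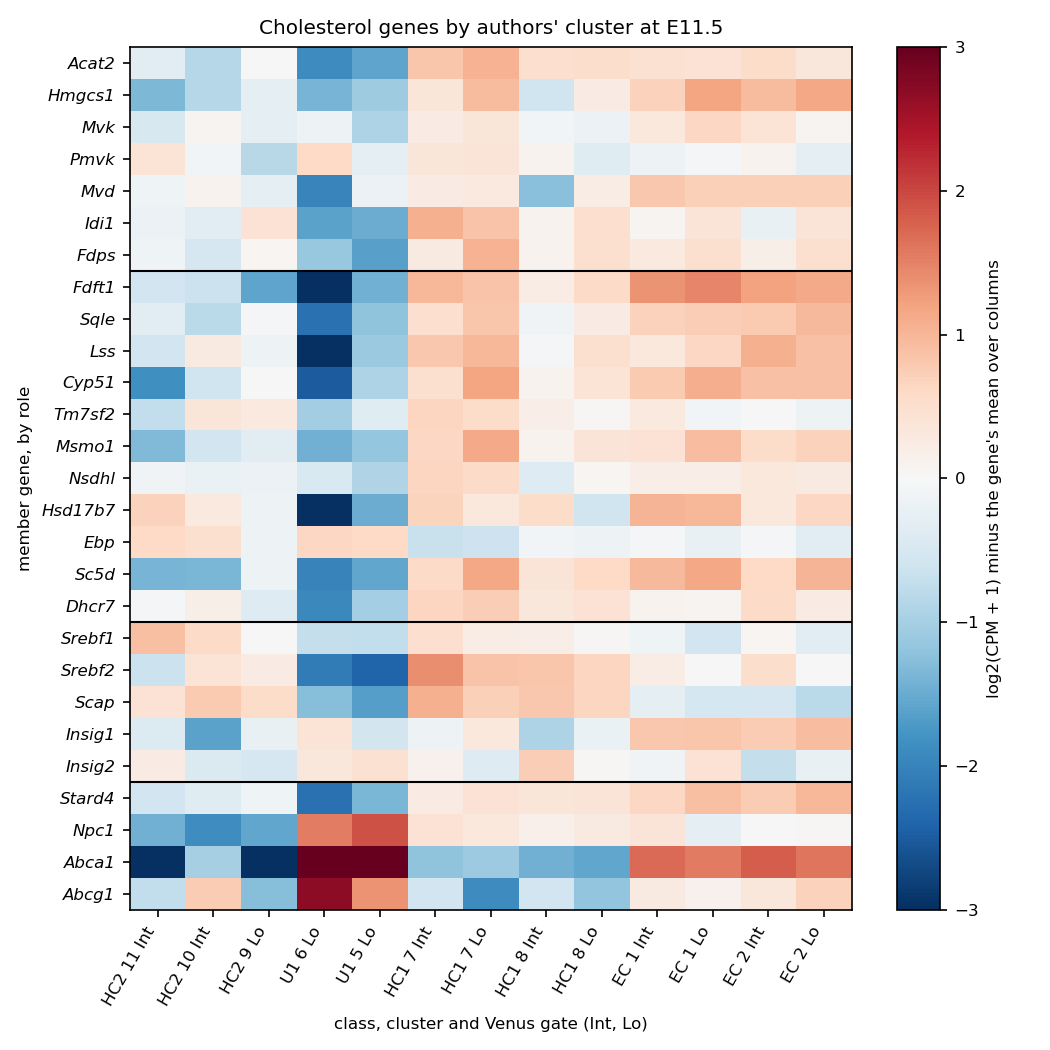
Levels of the 27 members in each authors' cluster at E11.5. Columns are clusters with at least 10 cells, split by Venus gate, rows are genes grouped by role, and color is log2(CPM + 1) minus the gene's mean over the columns, clipped at 3 either way. U1 columns are low for most synthesis enzymes and high for Abca1, Abcg1 and Npc1.

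In U1 cells, most synthesis enzymes were low and the exporter Abca1 was high. The 18 enzymes summed to 409.6 CPM in U1 cells of the G2VLo group (77 cells), against 1218 CPM in EC cluster 2. Of 16 measured enzymes, 13 were at least 2-fold lower in U1 cells and 0 at least 2-fold higher; over all genes tested, 22.4% were lower and 16% higher by this measure. Their median log2 ratio was -1.70 relative to all genes, whose own median was -0.29. Over all 25 measured members, 16 were lower and 2 higher; Idi1 and Tm7sf2 did not reach 10 CPM. With TMM scaling, which brings the median of all genes to -0.04, 14 were lower and 4 higher, the 2 added being Ebp and Abcg1.

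Fdft1 had 11.48 CPM in U1 cells, against 82.3 CPM in EC cluster 2, a log2 ratio of -2.84 (95% counting interval -2.98 to -2.70). Fdft1 makes squalene, the step at which sterols part from the other products of farnesyl diphosphate. The median U1 cell had 0 CPM of Fdft1, against 66.8 CPM for the median cell of cluster 2. Fdft1 shares 21.8% of its 75-base runs with other genes, Ctsb among them, so its level is uncertain. Sc5d had 8.75 CPM in U1 cells, against 59.9 CPM in EC cluster 2. Hmgcs1 had 47.3 CPM in U1 cells, against 232.02 CPM in EC cluster 2, and the log2 ratio was -2.29 (95% counting interval -2.36 to -2.23). Hmgcs1 stands in the mevalonate steps, and Sqle, in the squalene steps, was low beside it, with 36.7 CPM in U1 cells, against 182.4 CPM in EC cluster 2. Cyp51 had 28.1 CPM in U1 cells, against 109.3 CPM in EC cluster 2, and Msmo1 32.2 CPM in U1 cells, against 121.7 CPM in EC cluster 2. Hsd17b7, Fdps, Lss and Acat2 had log2 ratios of -2.63, -2.42, -2.35 and -2.02. Dhcr7, Nsdhl and Mvd were nearer the 2-fold line, at -1.39, -1.16 and -1.05; with TMM scaling Nsdhl and Mvd came to -0.93 and -0.82, short of it.

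The other measured enzymes did not pass 2-fold downwards. Ebp had 64.5 CPM in U1 cells, against 33.5 CPM in EC cluster 2, a log2 ratio of 0.94 (95% counting interval 0.87 to 1.02). With TMM scaling it came to 1.17. Pmvk had a ratio of 0.17, while Mvk was low at -0.93, short of 2-fold. Both U1 clusters had Ebp above Fdft1: Ebp had 64.3 CPM in cluster 5 and 65.6 CPM in cluster 6, and Fdft1 12.9 and 2.10 CPM.

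Srebf2 was also low, with 16.997 CPM in U1 cells, against 91.6 CPM in EC cluster 2 (log2 ratio -2.43). Insig1 had 21.2 CPM in U1 cells, against 53.6 CPM in EC cluster 2 (-1.34). Scap and Srebf1 had smaller differences, -0.81 and -0.44, and Insig2 was on the other side at 0.68. The sterol carrier Stard4 had 24.03 CPM in U1 cells, against 137.1 CPM in EC cluster 2 (-2.51).

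Abca1 went the other way, with 444.99 CPM in U1 cells, against 76.5 CPM in EC cluster 2, a log2 ratio of 2.54 (95% counting interval 2.50 to 2.58). Per cell, the quartiles of Abca1 were 224.9, 380.6 and 574 CPM in U1 cells, against 27.3, 60.03 and 103.8 CPM in EC cluster 2, so the lower quartile of the U1 cells lay above the upper quartile of the EC cells. Npc1 had 77.1 CPM in U1 cells, against 20.9 CPM in EC cluster 2 (1.88). Abcg1 had 66.7 CPM in U1 cells, against 34.7 CPM in EC cluster 2 (0.94), with 141.1 CPM in cluster 6 and 55.5 CPM in cluster 5.

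Other genes of the pathway were followed in 5 lists, whose members were split in the same comparison. Of lipoprotein and scavenger receptors and their helpers, 4 of 5 measured genes were at least 2-fold higher and 0 at least 2-fold lower, between 10.03 for Lrp1 and -0.08 for Scarb1 on the log2 scale; Lrp1 is a receptor of lipoprotein remnants. Lrp1 had 215.3 CPM in U1 cells, against 0.206 CPM in EC cluster 2, a level near 0 that leaves the ratio imprecise. Of SREBP and LXR control genes, 4 of 14 measured genes were at least 2-fold higher and 1 at least 2-fold lower, between 4.41 for Nr1h3 and -1.03 for Mbtps1 on the log2 scale; Nr1h3 encodes LXR-alpha and Mbtps1 the protease that makes the opening cut in SREBP. Among sterol transport genes, 4 of 13 measured genes were at least 2-fold higher and 2 at least 2-fold lower, between 2.84 for Gramd1b and -4.20 for Osbpl5 on the log2 scale. Of other sterol enzymes, 4 of 11 measured genes were at least 2-fold higher and 0 at least 2-fold lower, between 4.66 for Cyp27a1 and -0.98 for Lbr on the log2 scale; Cyp27a1 makes an oxysterol. Of SREBP targets of fatty acid synthesis, 0 of 9 measured genes were at least 2-fold higher and 6 at least 2-fold lower, between -0.43 for Acaca and -3.30 for Fads2 on the log2 scale. Over all genes, the shares were the 16% higher and 22.4% lower given above. Genes of the G2 and M phases had a median of 0.29 relative to all genes. Their part in the result was not tested.

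Set against HC1 cells of the same gate, a comparison added after the levels by cluster were seen, U1 cells had 11 of 16 measured synthesis enzymes at least 2-fold lower, where 28.9% of all genes were lower. The median of all genes was -0.48 here, and -0.05 with TMM scaling. Abca1 had 444.99 CPM in U1 cells, against 8.93 CPM in HC1 cells, and Srebf2 16.997 CPM in U1 cells, against 153.3 CPM in HC1 cells. Their log2 ratios were 5.64 and -3.17.

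**Figure D2:**
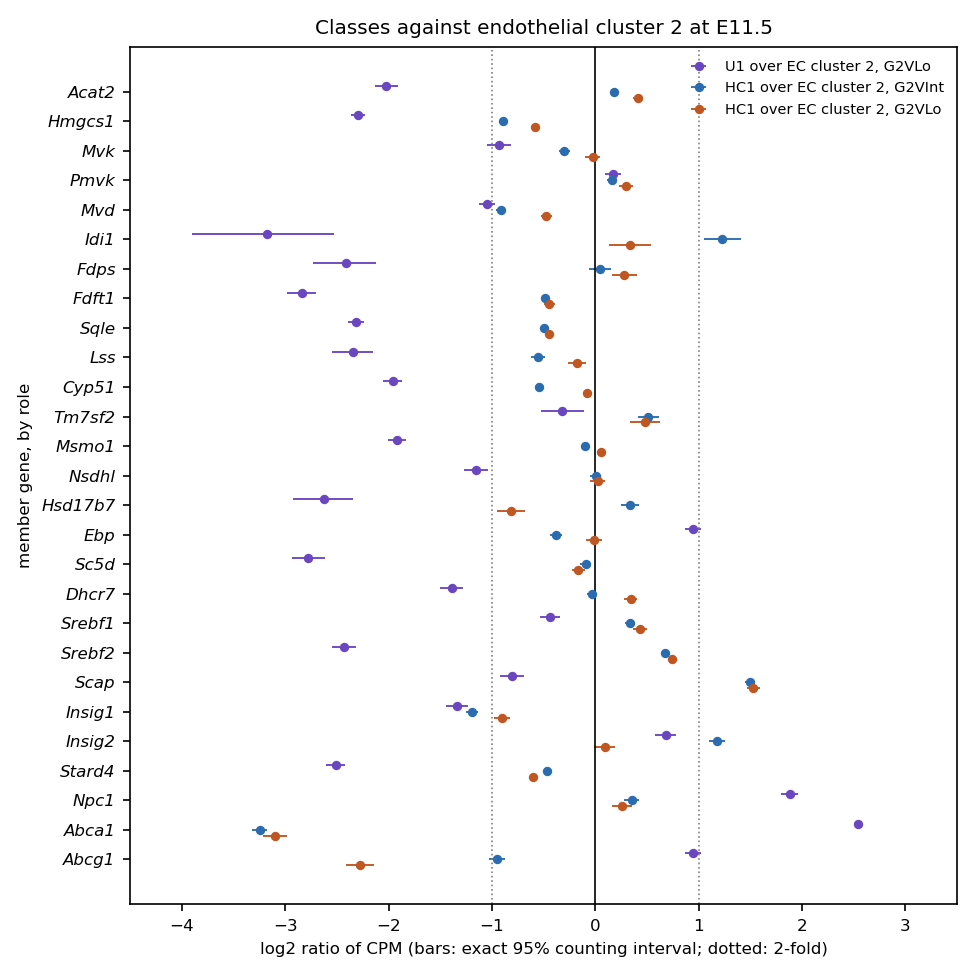
Log2 ratios of CPM for the 27 members at E11.5, U1 over EC cluster 2 and HC1 over EC cluster 2, with exact 95% counting intervals as bars and 2-fold as dotted lines. U1 points lie left of -1 for most synthesis enzymes and right of 1 for Abca1 and Npc1, while HC1 points lie left of -1 for Abca1 in both gates and right of 1 for Scap.

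HC1 cells had less Abca1 and more Scap, the SREBP escort, than EC cells in both gates, and 0 synthesis enzymes passed 2-fold. The 18 enzymes summed to 1087 CPM in HC1 cells, against 1218 CPM in EC cluster 2, within the G2VLo gate. Within G2VInt the sums were 949.6 CPM in HC1 cells, against 1197 CPM in EC cluster 2. In all, 0 of the 17 measured enzymes differed 2-fold in either gate, where 25.1% of all genes did in G2VLo and 24.4% in G2VInt. The enzymes' median log2 ratio was -0.24 (G2VLo) and -0.28 (G2VInt) relative to all genes, whose medians were 0.21 and 0.18, and 0.01 and 0.03 with TMM scaling. The lowest were Hsd17b7 at -0.82 in G2VLo and Mvd at -0.91 in G2VInt. With TMM scaling Hsd17b7 in G2VLo, and Mvd and Hmgcs1 in G2VInt, passed 2-fold.

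Abca1 had 8.93 CPM in HC1 cells, against 76.5 CPM in EC cluster 2 within G2VLo, and 9.29 CPM in HC1 cells, against 88.2 CPM in EC cluster 2 within G2VInt. The log2 ratios were -3.10 (95% counting interval -3.22 to -2.98) and -3.25 (95% counting interval -3.33 to -3.17). After thinning each cell to 100000 reads, 20.2% of HC1 cells of the G2VLo gate held an Abca1 read (exact 95% interval 14.4 to 27.2%), against 95.2% of EC cluster 2 cells (89.8 to 98.2%). Without thinning the shares were 36.8% of HC1 cells and all EC cluster 2 cells. Abcg1 had 7.17 CPM in HC1 cells, against 34.7 CPM in EC cluster 2 within G2VLo, and 13.9 CPM in HC1 cells, against 26.9 CPM in EC cluster 2 within G2VInt, and its log2 ratio was -2.27 in G2VLo and -0.95 in G2VInt. Npc1 had ratios of 0.26 and 0.35, and Stard4 had -0.60 and -0.47.

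Scap had 97.3 CPM in HC1 cells, against 33.7 CPM in EC cluster 2 within G2VLo, and 119.2 CPM in HC1 cells, against 42.3 CPM in EC cluster 2 within G2VInt, with log2 ratios of 1.53 and 1.49. Srebf2 had 153.3 CPM in HC1 cells, against 91.6 CPM in EC cluster 2 within G2VLo, and 210.7 CPM in HC1 cells, against 132.4 CPM in EC cluster 2 within G2VInt (0.74 and 0.67). Insig1 had 28.7 CPM in HC1 cells, against 53.6 CPM in EC cluster 2 within G2VLo, and 20.9 CPM in HC1 cells, against 47.7 CPM in EC cluster 2 within G2VInt. Its log2 ratio was -0.90 in G2VLo, short of 2-fold, and -1.19 in G2VInt. Insig2 had a ratio of 0.09 in G2VLo and 1.17 in G2VInt; with the mean of the per-cell CPM the G2VInt ratio was 0.99. Across both gates, then, Scap and Srebf2 were on the high side and Insig1 on the low side. By the 2-fold rule 1 member was higher and 2 lower in G2VLo, and 2 higher and 2 lower in G2VInt, against 13.9% and 11.2% of all genes in G2VLo and 12.9% and 11.6% in G2VInt. With TMM scaling Insig1 (-1.10) and Hsd17b7 (-1.02) joined the lower ones in G2VLo, and Abcg1 (-1.09), Mvd (-1.05) and Hmgcs1 (-1.03) in G2VInt.

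Among other pathway genes in the G2VLo gate, 3 of 11 measured sterol enzymes were at least 2-fold higher and 0 at least 2-fold lower, between 2.41 for Cyp27a1 and -0.97 for Soat1 on the log2 scale; Soat1 esterifies cholesterol for storage. Of control genes, 0 of 13 measured were at least 2-fold higher and 1 at least 2-fold lower, between 0.93 for Nr1h2 and -1.13 for Rxra on the log2 scale. Of receptors, 0 of 4 measured were at least 2-fold higher and 1 at least 2-fold lower, between 0.59 for Lrpap1 and -7.62 for Cd36 on the log2 scale. Cd36, a scavenger receptor of endothelium, had 0.173 CPM in HC1 cells, against 33.9 CPM in EC cluster 2. Of transport genes, 2 of 13 measured were at least 2-fold higher and 0 at least 2-fold lower, between 3.76 for Abca2 and -0.37 for Osbpl9 on the log2 scale. Of fatty acid targets, 2 of 10 measured were at least 2-fold higher and 0 at least 2-fold lower, between 2.89 for Acss2 and -0.47 for Scd2 on the log2 scale. In the G2VInt gate the ends of the same lists were Cyp27a1 (2.42) and Soat1 (-0.48), Mylip (1.07) and Rxra (-1.31), Vldlr (0.61) and Cd36 (-7.28), Abca2 (4.90) and Osbp (-0.70), and Acss2 (1.87) and Elovl5 (-0.76). The same genes were thus the highest or lowest in both gates for the oxysterol enzyme Cyp27a1, Soat1, Rxra, Cd36, the transporter Abca2 and Acss2, an acetyl-CoA synthetase.

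**Figure D3:**
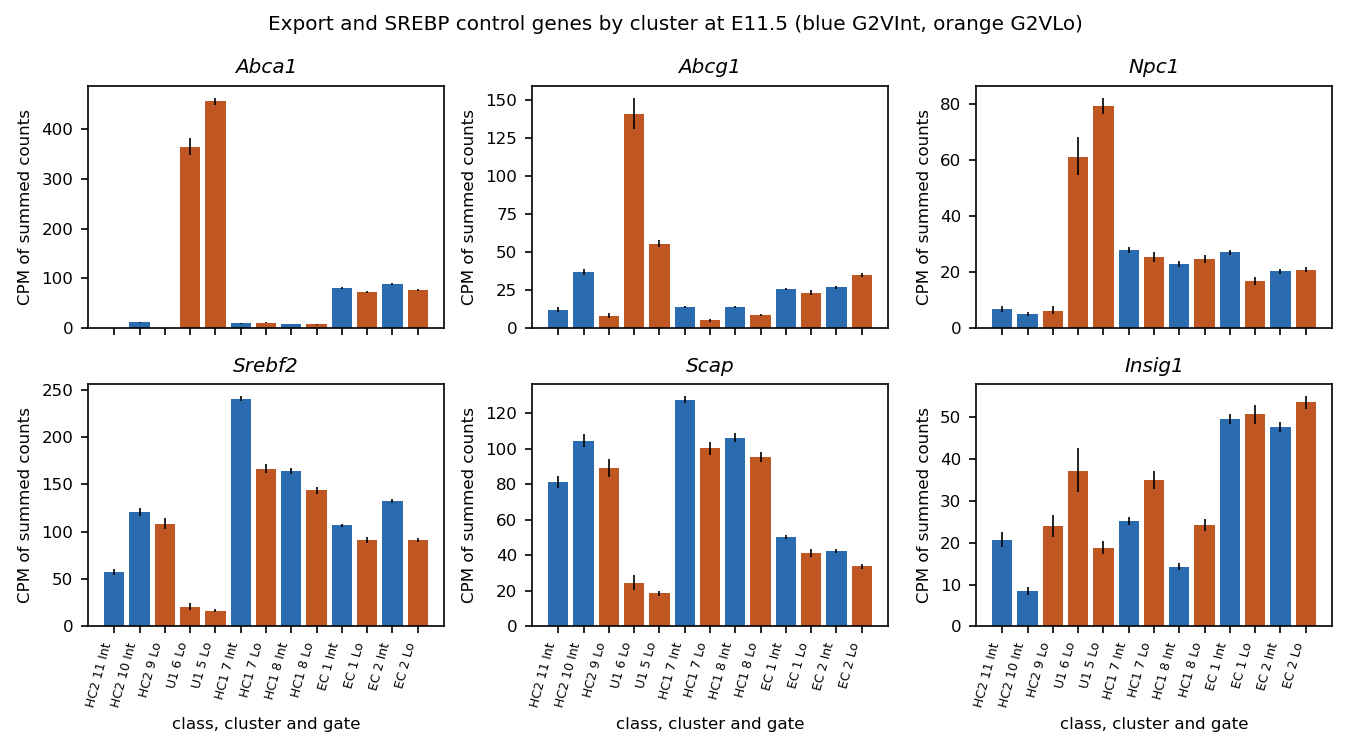
CPM of 6 members in each cluster at E11.5, with 95% counting intervals; blue bars are G2VInt and orange bars G2VLo. Abca1 and Npc1 are highest in U1 clusters 5 and 6, Srebf2 and Scap are lowest there, and Insig1 is highest in EC clusters 1 and 2.

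Within HC1, cluster 7 held more synthesis transcript than cluster 8 in each group that had both. This comparison, like that of HC2 with HC1 below, was added after the levels by cluster were seen. The sums were 932 CPM in cluster 7, against 716 CPM in cluster 8, at E10, and 1251 CPM in cluster 7, against 844 CPM in cluster 8, at E11. At E11.5 they were 1078 CPM in cluster 7, against 749 CPM in cluster 8, among G2VInt cells. Among G2VLo cells they were 1334 CPM in cluster 7, against 910.2 CPM in cluster 8. Single cells weigh on such sums, and the highest cell of cluster 7 at E11 reached 4406 CPM. Medians per cell were 693 CPM in cluster 7, against 622 CPM in cluster 8, at E10, and 912 against 717 CPM at E11. At E11.5 they were 843 against 668 CPM among G2VInt cells, and 1028 against 719 CPM among G2VLo cells. Few enzymes passed 2-fold: 0, 4, 2 and 1 of 17 in these 4 sets, where 5.57%, 6.4%, 5.79% and 4.1% of all genes did. They were Cyp51, Lss, Fdps and Hsd17b7 at E11, Mvd and Nsdhl in G2VInt cells of E11.5, and Hsd17b7 in G2VLo cells. Several of these calls were lost under other settings. Lss at E11 came to -0.15 with upper library numbers and 3.63 with lower ones, and Fdps to 0.78 with upper ones. Cyp51 at E11, Nsdhl in G2VInt and Hsd17b7 in G2VLo came to 0.90, 0.65 and 0.60 with the mean of per-cell CPM. By direction alone, 17, 15, 16 and 16 of the 17 measured enzymes lay higher in cluster 7, with relative medians of 0.34, 0.52, 0.38 and 0.56. With only the upper library numbers of E10, the E10 median was -0.05.

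Hmgcs1 had log2 ratios of 0.94, 0.88, 0.98 and 0.73 in the 4 sets, and Msmo1 0.51, 0.77, 0.50 and 0.77. Ebp was on the other side from E11 on, with Sc5d beside it at E11 (-0.25). The ratios of Ebp from E11 on were -0.41, -0.60 and -0.50. The relative median of G2 and M phase genes was -0.35, 0.15, -0.49 and -0.64. Their part in the result was not tested. Median depth in G2VLo cells was 418321 reads in cluster 7, against 466202 reads in cluster 8.

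In CD27+ cells the same order held by the clustering of all cells. The enzymes summed to 1235 CPM in the 16 cells of cluster 7, against 739 CPM in the 69 cells of cluster 8. Of 17 measured enzymes, 6 were at least 2-fold higher in cluster 7 and 1, Ebp, lower (7.36% and 6.09% of all genes). Hmgcs1 had 204.4 CPM in cluster 7, against 92.6 CPM in cluster 8, and Sqle 194.8 CPM in cluster 7, against 78.9 CPM in cluster 8. Insig1 had 44.1 CPM in cluster 7, against 10.5 CPM in cluster 8, and Ebp 10.1 CPM in cluster 7, against 43.4 CPM in cluster 8. With 16 cells on 1 side, single cells weigh on these sums.

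In turn, HC2 cells held less synthesis transcript than HC1 cells. The sums were 668 CPM in HC2, against 1074 CPM in HC1, at E11. At E11.5 they were 567 CPM in HC2, against 949.6 CPM in HC1, among G2VInt cells and 602 CPM in HC2, against 1087 CPM in HC1, among G2VLo cells. At least 2-fold apart, and lower in HC2, were 5 of 17, 7 of 17 and 6 of 16 measured enzymes, against 23.7%, 23% and 15.1% of all genes apart in either direction. Relative medians were -0.69, -0.64 and -0.69. Hmgcs1, Cyp51, Msmo1 and Sc5d passed 2-fold in each of the 3 sets; Sc5d had log2 ratios of -1.36, -1.38 and -1.18. Over the settings, Acat2 stayed past 2-fold at E11 (-1.85 to -1.62) and in G2VInt (-1.45 to -1.13), and ran from -1.33 to -0.57 in G2VLo. Dhcr7 stayed past 2-fold in G2VLo (-1.38 to -1.16) and short of it at E11 and in G2VInt. The calls of Hmgcs1, Cyp51, Msmo1 and Sc5d lay near the line. Hmgcs1 came to -0.75 at E11 with lower library numbers and -0.96 in G2VInt with TMM scaling. Thinned to 100000 reads, Cyp51 came to -0.83 at E11 and -0.96 in G2VLo, Msmo1 to -0.97 at E11 and Sc5d to -0.84 in G2VLo. With lower library numbers Msmo1 and Sc5d came to -0.88 and -0.81 in G2VInt. Ebp was again on the high side, at 0.89, 0.89 and 0.39.

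Npc1 had the lowest ratio of the measured members in HC2 at E11.5, with 6.74 CPM in HC2 cells, against 25.9 CPM in HC1 cells, in G2VInt, and 6.28 CPM in HC2 cells, against 25.1 CPM in HC1 cells, in G2VLo. Srebf2 had ratios of -0.80, -1.20 and -0.66, while Scap stayed near HC1 at 0.05, -0.38 and -0.28. HC2 also held erythroid and granule markers, which summed to 995 and 1295 CPM in G2VInt HC2 cells, against 41.2 and 318.5 CPM in HC1 cells. Their part in the result was not tested. G2 and M phase genes had relative medians of -0.72, -0.38 and 0.70, above 0 in G2VLo alone.

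**Figure D4:**
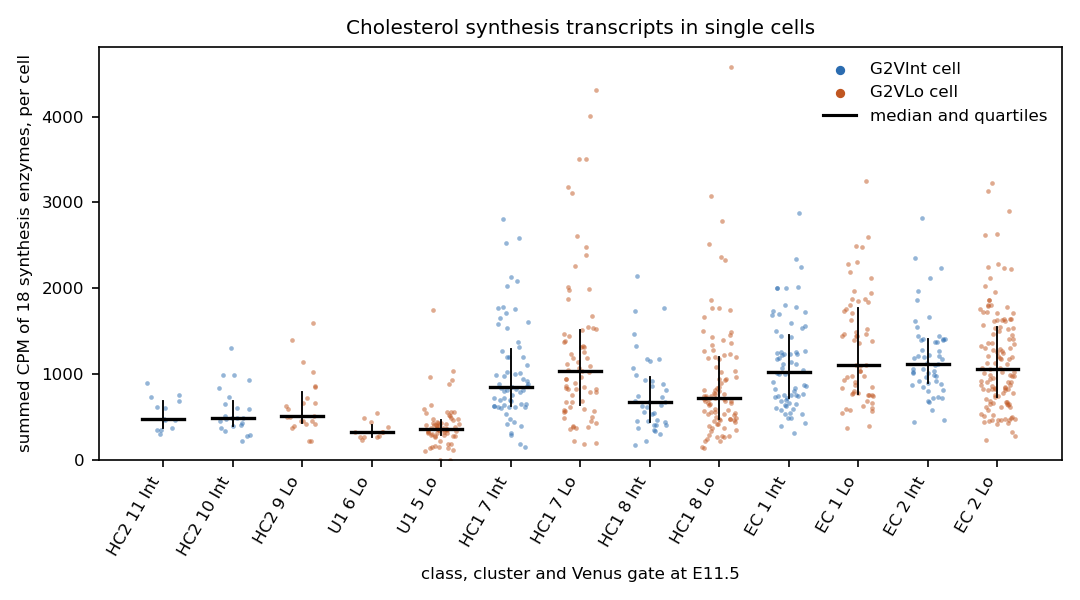
Summed CPM of the 18 synthesis enzymes in each cell at E11.5, by class, cluster and gate; each point is a cell, lines give the median and quartiles. The medians are lowest in U1 clusters 5 and 6 (359.99 and 320.7 CPM) and highest in EC cluster 2 of the G2VInt gate (1120.2 CPM), and cells within HC1 clusters spread widely.

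Single cells of a cluster spread widely around these medians. In cluster 7 of the G2VLo gate the sum ran from 180.05 to 4307 CPM per cell, with quartiles of 643, 1028 and 1514 CPM. In EC cluster 2 of that gate the quartiles were 728, 1059.8 and 1548 CPM. In U1 cluster 5 they were 283.3, 359.99 and 457.2 CPM, so the upper quartile there lay below the lower quartile of both others.

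Within a cluster, correlations between sterol enzymes over cells were weak and are given as a description only. Over the cells of a cluster, each thinned to 100000 reads, the median Spearman rho between pairs of synthesis enzymes was 0.203 in cluster 7 of G2VLo (71 cells) and 0.199 in cluster 1 of G2VInt (68 cells). It was 0.137 and 0.143 in EC cluster 2 of G2VInt and G2VLo, and 0.0683, the lowest of 9 sets, in U1 cluster 5. The value of U1 cluster 5 rests on 14 enzymes, against 17 or 18 in each other set. The enzymes there summed to 418.6 CPM, against 1218 CPM in EC cluster 2 of G2VLo, so fewer reads remained after thinning. The part of these low counts in the lower rho was not tested. Over all pairs of genes the medians lay between 0.00179 and 0.0181. The leading pairs were Fdft1 with Msmo1 (rho 0.65) in cluster 1 of G2VInt, Hmgcs1 with Cyp51 (rho 0.62) in cluster 1 of G2VLo, Hmgcs1 with Msmo1 (rho 0.58) in cluster 2 of G2VLo, and Cyp51 with Msmo1 (rho 0.55) in cluster 7 of G2VLo. The summed enzymes had a rho with the summed G2 and M genes between -0.12 and 0.07, and with depth between -0.12 and 0.23. The points of each rho share a cluster, a group and a library block.

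Members in the G2VInt and G2VLo cells of E11.5 were compared over all cells first. In all, 0 of 26 measured members differed 2-fold between G2VInt and G2VLo cells of E11.5, where 3.34% of all genes did, 1.65% higher and 1.69% lower, so the count lies near that share. The median of the 17 synthesis enzymes was -0.09 relative to all genes, whose median was 0.18; with TMM scaling that median came to 0.03.

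Srebf2 had 140.2 CPM in G2VInt cells, against 98.1 CPM in G2VLo cells (log2 ratio 0.52). Scap had 75.7 CPM in G2VInt cells, against 54.4 CPM in G2VLo cells (0.48), and Srebf1 61.01 CPM in G2VInt cells, against 44.2 CPM in G2VLo cells (0.46). The 3 lay above the shift of all genes. Abca1 had 55.7 CPM in G2VInt cells, against 106.6 CPM in G2VLo cells, a log2 ratio of -0.94 (95% counting interval -0.96 to -0.91), the lowest member. It passed 2-fold with TMM scaling (-1.08). U1 cells made up 2.87% of G2VInt and 16.3% of G2VLo cells, and macrophage markers, 10 of 10 at 10 CPM or more in both, summed to 523 CPM in G2VInt and 1780.4 CPM in G2VLo cells. Fewer cells of a class and less RNA per cell cannot be told apart in sums over all cells. Without U1 and U2 cells, Abca1 had 48.7 CPM in G2VInt cells, against 45.6 CPM in G2VLo cells, a log2 ratio of 0.10.

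Within clusters the enzymes of G2VInt cells were on the low side of all genes. Relative medians were -0.24 and -0.14 in EC clusters 1 and 2, -0.26 and -0.41 in HC1 clusters 7 and 8, and -0.35 in HC2. In cluster 8, Mvd had 19.5 CPM in G2VInt cells, against 55.4 CPM in G2VLo cells, and Hsd17b7 had 15.6 CPM in G2VInt cells, against 6.496 CPM in G2VLo cells. These were the members past 2-fold there, against 4.99% of all genes. Abcg1 was higher in G2VInt cells in cluster 7 (13.9 CPM in G2VInt, against 5.03 CPM in G2VLo, with 5.59% of all genes past 2-fold), and in HC2 (1.26). In HC2, Lss and Insig1 were past 2-fold in the other direction, at -1.08 and -1.13, with 12.1% of all genes. HC2 cells lay in different clusters in the 2 gates: cluster 10 held 23 and cluster 11 held 13 of 44 HC2 cells in G2VInt, while cluster 9 held 23 of 36 in G2VLo. Erythroid markers of HC2 summed to 995 CPM in G2VInt cells, against 345.1 CPM in G2VLo cells, and mast cell markers to 486 CPM in G2VInt cells, against 105.8 CPM in G2VLo cells; their part in the HC2 values was not tested. G2 and M genes had relative medians of 0.89 and 0.80 in clusters 7 and 8; their part in the result was not tested. In clusters 1 and 2, 0 members passed 2-fold (4.3% and 1.68% of all genes).

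Of the other pathway genes between the gates, 0 of 11 measured sterol enzymes were at least 2-fold higher and 0 at least 2-fold lower, between 0.47 for Cyb5r3 and -0.81 for Cyp27a1 on the log2 scale. Of receptors, 0 of 6 measured were at least 2-fold higher and 2 at least 2-fold lower, between 0.53 for Cd36 and -1.60 for Lrp1 on the log2 scale. Of control genes, 0 of 13 measured were at least 2-fold higher and 0 at least 2-fold lower, between 0.43 for Mbtps1 and -0.15 for Rnf145 on the log2 scale. Of transport genes, 0 of 13 measured were at least 2-fold higher and 0 at least 2-fold lower, between 0.90 for Abca7 and -0.21 for Stard5 on the log2 scale. Of fatty acid targets, 0 of 12 measured were at least 2-fold higher and 0 at least 2-fold lower, between 0.93 for Acss2 and -0.04 for Elovl6 on the log2 scale.

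Over all cells, CD27+ cells had lower Abca1 and Abcg1 than G2VLo cells. Abca1 had 27.9 CPM in CD27+ cells, against 106.6 CPM in G2VLo cells, a log2 ratio of -1.93 (95% counting interval -2.00 to -1.87). Abcg1 had 9.51 CPM in CD27+ cells, against 27.9 CPM in G2VLo cells (-1.55). They were the 2 of 26 measured members at least 2-fold lower, and 0 were higher; over all genes 5.92% were lower and 2.08% higher, so the share of members called lay near that of all genes. Macrophage markers summed to 469.4 CPM in CD27+ cells, with 7 of 10 at 10 CPM or more, against 1780.4 CPM in G2VLo cells. Endothelial markers summed to 2949 CPM in CD27+ cells, against 4731 CPM in G2VLo cells, and mesenchymal markers to 214.04 CPM in CD27+ cells, against 40.5 CPM in G2VLo cells. The part of the endothelial and mesenchymal shifts in the result was not tested. Without clusters 3 to 6 and 12 of the clustering of all cells, Abca1 had a ratio of -0.97, short of 2-fold, and Abcg1 of -1.17.

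Insig1 had 22.4 CPM in CD27+ cells, against 39.1 CPM in G2VLo cells (-0.80), and Scap was the highest member at 0.33. The enzymes' relative median was -0.18. Within cluster 8 of all cells it was -0.36, and 2 members passed 2-fold downwards, where 1.99% of all genes did. They were Insig1 (10.5 CPM in CD27+, against 27.5 CPM in G2VLo) and Fdps (-1.10). Over all CD27+ cells Fdps had 8.44 CPM, under the floor of 10 CPM. Members higher within clusters 7 and 8 are not counted here. Within cluster 7 the median was 0.09, and Ebp (-1.55) and Tm7sf2 (-1.14) were lower, with 8.97% of all genes. Abca1 and Abcg1 are not among the members named as lower in either cluster. A gene under 10 CPM in both sets enters no count there. The enzymes as a list were thus on the low side in cluster 8 and near all genes in cluster 7, which held 16 CD27+ cells. The difference between the 2 clusters was not tested.

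Against G2VInt cells of E11.5, 1 member was at least 2-fold lower, Abcg1, with 9.51 CPM in CD27+ cells, against 26.4 CPM in G2VInt cells (-1.47), where 8.32% of all genes were lower; 0 members and 1.71% of all genes were higher. Abca1 lay at the line, with 27.9 CPM in CD27+ cells, against 55.7 CPM in G2VInt cells. Insig1, Srebf1 and Srebf2 had ratios of -0.62, -0.59 and -0.46. The enzymes' relative median was 0.01. The median of all genes was -0.16 here, and -0.05 with TMM scaling. Both CD27+ comparisons use the same CD27+ cells.

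Of the other pathway genes, in CD27+ against G2VLo cells 0 of 7 measured receptors were at least 2-fold higher and 3 at least 2-fold lower, between 0.61 for Lrp8 and -2.49 for Msr1 on the log2 scale; Msr1 is a scavenger receptor of macrophages. Of transport genes, 1 of 13 measured was at least 2-fold higher and 0 at least 2-fold lower, between 1.19 for Abca2 and -0.84 for Vapb on the log2 scale. Of sterol enzymes, control genes and fatty acid targets 0 passed 2-fold, between 0.19 for Cyp27a1 and -0.75 for Soat1, between 0.28 for Mbtps2 and -0.49 for Rnf145 and between 0.58 for Acaca and -0.69 for Aacs. Against G2VInt cells the ends of the lists were Cyp27a1 (0.9997) and Por (-0.47), Tmem97 (0.13) and Mbtps1 (-0.61), Lrp8 (0.75) and Cd36 (-1.76), Abca2 (0.93) and Abca3 (-1.34), and Acaca (0.52) and Lpin1 (-1.38).

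Between E11 and E10 cells of the G2VInt gate, 0 of 26 measured members were at least 2-fold higher at E11 over all cells, where 4.06% of all genes were, and 0 were 2-fold lower (0.924% of all genes). By direction alone, 19 of the 26 lay above the median of all genes, which was 0.01. Mast cell markers summed to 242.01 CPM at E11, against 1.79 CPM at E10, and erythroid markers to 210.4 CPM at E11, against 39.3 CPM at E10. HC2 made up 27.7% of cells at E11 and 9.20% at E10, and HC1 59.2% at E11 and 72.4% at E10. Their part in the values over all cells was not tested. Stard4 came closest, with 94.1 CPM at E11, against 48.7 CPM at E10, a log2 ratio of 0.95 (95% counting interval 0.92 to 0.99). With the mean of per-cell CPM its ratio was 1.04. Mvk had 34.6 CPM at E11, against 19.1 CPM at E10 (0.85), and Lss 34.1 CPM at E11, against 19.8 CPM at E10 (0.78). Fdft1, Npc1, Cyp51 and Sc5d had ratios of 0.61, 0.56, 0.52 and 0.52. The enzymes' relative median was 0.17.

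Within HC1 clusters more members passed 2-fold upwards, and so did a larger share of all genes than the 4.06% over all cells. Members lower within these clusters are not counted here. In cluster 7 (46 cells at E11, 27 at E10) 4 members were at least 2-fold higher at E11: Cyp51 with 152.4 CPM at E11, against 61.1 CPM at E10, Stard4 with 111.8 CPM at E11, against 48.5 CPM at E10, Abcg1 (1.14) and Mvk (1.13). There 8.18% of all genes were higher. In cluster 8 (31 cells at E11, 36 at E10) the 3 were Mvk with 33.6 CPM at E11, against 15.5 CPM at E10, Sc5d (1.08) and Npc1 (1.01), with 6.07% of all genes. Mvk was thus the member at least 2-fold higher in both clusters. The enzymes' relative median was 0.35 in cluster 7 and 0.13 in cluster 8.

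**Figure D5:**
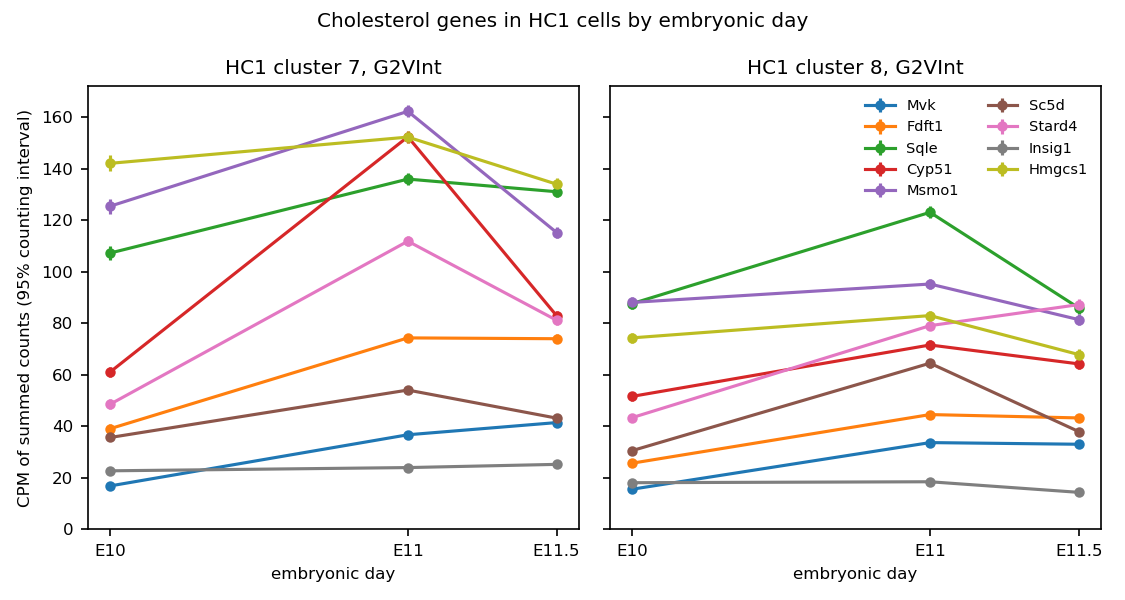
CPM of 9 members in HC1 clusters 7 and 8 of the G2VInt gate at E10, E11 and E11.5, with 95% counting intervals; the 9 were chosen after their values were seen. Mvk, Stard4, Cyp51 and Sc5d are lowest at E10 in both clusters, while Insig1 lies between 14.3 and 25.1 CPM throughout.

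Between E11 and E11.5 the enzymes lay near all other genes, with a relative median of 0.14 over all cells, -0.04 in cluster 7 and -0.04 in cluster 8, and 0 enzymes past 2-fold over all cells. The median of all genes was -0.14 over all cells, and 0.00 with TMM scaling. Lss was the lowest enzyme, with 21.7 CPM at E11.5, against 34.1 CPM at E11 (-0.65). In HC2, Lss had 11.6 CPM at E11.5, against 41.5 CPM at E11, and Insig1 and Npc1 were lower too (-1.23 and -1.24), with 4.06% of all genes lower. Cluster 10 held 23 of 44 and cluster 11 another 13 HC2 cells at E11.5, against 20 of 36 in cluster 10 at E11, and mast cell markers of HC2 summed to 486 CPM at E11.5, against 999.8 CPM at E11; their part in these values was not tested. Cyp51 had a ratio of -0.88 in cluster 7 and -0.16 in cluster 8.

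Abca1 was the exception, with 55.7 CPM at E11.5, against 16.8 CPM at E11, a log2 ratio of 1.73 (95% counting interval 1.68 to 1.77). It was 1 of 26 measured members at least 2-fold higher, where 5.35% of all genes were, and 0 were lower (2.42%). EC cells made up 43.7% of the G2VInt cells at E11.5 and 11.54% at E11, and endothelial markers summed to 6822 CPM at E11.5 and 3664 CPM at E11. Their part in the result was not tested. Within cluster 7 the ratio of Abca1 was -0.45 and within cluster 8 0.59, on levels of 9.89 CPM at E11.5, against 13.5 CPM at E11, in cluster 7 and 8.34 CPM at E11.5, against 5.56 CPM at E11, in cluster 8.

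In the same comparisons of days, the highest and lowest log2 ratios among other sterol enzymes, control genes, receptors, transport genes and fatty acid targets were Nceh1 (1.001) and Lbr (-0.30), Rnf139 (0.48) and Tmem97 (-0.23), Vldlr (0.30) and Scarb1 (-0.03), Gramd1c (1.503) and Stard3 (-0.18), and Lpin1 (1.82) and Fasn (-0.43) at E11 against E10. They were Ggps1 (0.24) and Soat2 (-1.14), Rxra (0.84) and Rnf139 (-0.56), Cd36 (3.03) and Vldlr (-0.15), Osbpl5 (0.52) and Gramd1c (-1.04), and Elovl5 (0.17) and Gpam (-0.90) at E11.5 against E11. In the first of these comparisons Gramd1c, a sterol transfer protein, and Lpin1, a lipid phosphatase and SREBP target, stood out by size.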

How the data were processed

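Single-cell mRNA of sorted AGM cells had been turned into Nextera XT libraries and sequenced on an Illumina HiSeq, per the labels' protocols. The authors deposited raw read counts per gene and cell, made with HTSeq 0.6.0 on GRCm38 per the submitters' processing notes; aligner, annotation release, strand setting and read filters are not given in the sources used here. The groups held 119 CD27+, 87 E10 G2VInt, 130 E11 G2VInt, 279 E11.5 G2VInt and 472 G2VLo cells. No further cell filter or doublet caller was applied, and 0 cells had identical columns. Counts were summed over the cells of a group, class or cluster and divided by the total to give CPM, in Python 3.11.15 with numpy 2.4.6 and scipy 1.17.1. Intervals are exact Poisson (levels), exact conditional binomial (ratios) and Clopper-Pearson (shares), at 95%. Levels between genes were divided by merged exon length. TMM factors came from edgeR 4.0.16, used for scaling alone. The steps were tested on simulated counts. Promoter windows came from RefSeq (GRCm38.p6). All 27 members are named, and of each pathway list the measured genes with the highest and lowest ratio; 2 genes of these lists are not reported here and were left out of the lists and their counts after their values were seen. Members and lists were chosen with earlier results of these data known.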

Additional observations from a re-analysis of the deposited data

How the results depend on the processing

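Comparisons over all cells, and between classes or clusters of a group, were recomputed under other settings. Comparisons between groups within a cluster or within HC2 were not, so their calls rest on the main setting. The settings were the mean of per-cell CPM, TMM and median-of-ratios scaling, totals without mitochondrial genes, and no filter on low values. Further ones were cells thinned to 100000 reads, lower or upper library numbers only, and a 1.5-fold threshold. Comparisons over all cells were also made without U1 and U2 cells (CD27+ comparisons: no cells of clusters 3 to 6 and 12 of all cells). Over these alternatives, 48 values moved by more than the counting interval, or by over 1.5 times for counts, as follows; the cause was not tested. For G2VInt against G2VLo, 1 member in place of 0 was lower with per-cell means, either scaling, thinning, upper numbers or 1.5-fold. The relative median of the enzymes there came to -0.14 thinned, -0.16 with lower numbers and -0.17 without U1 and U2, against -0.09. For CD27+ against G2VLo it came to -0.12 with per-cell means, -0.04 with lower and -0.22 with upper numbers, and -0.37 without the clusters named, against -0.18. For CD27+ against G2VInt it came to 0.12 thinned, 0.14 with lower and -0.05 with upper numbers, against 0.01. There, 2 members were lower with upper numbers or without the clusters named, and 4 at 1.5-fold, against 1. For E11 against E10, members higher came to 1 with per-cell means, thinned or without U1 and U2, 2 with lower numbers and 4 at 1.5-fold, against 0, and the median to 0.31 with upper numbers, against 0.17. For E11.5 against E11, 1 member was lower with lower numbers or at 1.5-fold, against 0, and the median was 0.06 thinned, against 0.14. For HC1 against EC in G2VLo, 4 members were lower with TMM and 5 at 1.5-fold, against 2, and 2 were higher at 1.5-fold, against 1. For HC1 against EC in G2VInt the median came to -0.35 with per-cell means, -0.25 without a filter, -0.40 thinned, and -0.47 and -0.15 with lower and upper numbers, against -0.28. There, 1 member was higher with per-cell means or lower numbers, against 2, while 5 were lower with either scaling, upper numbers or 1.5-fold and 4 thinned, against 2. For U1 against EC, 4 members were higher with either scaling and 5 at 1.5-fold, against 2, and the median was -1.61 thinned and -1.56 with lower numbers, against -1.70. Comparisons added after the levels by cluster were seen were recomputed too but are not in this count. Among them, cluster 7 against 8 at E10 had a median of -0.05 with upper numbers, against 0.34.

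No paired analysis was possible because the labels carry no replicate numbers and each group is 1 sample. Counting error does not cover differences between embryos, litters or sorts. G2VLo and CD27+ cells had lower median depths than G2VInt cells. A gene under 10 CPM in both sets, such as Idi1 between groups, entered no count.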
